A study of Homo sapiens with 12 samples.

Results

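The circadian clock genes and their BHLHE40 branch were followed in RCC4 cells after loss of HIF1A, of HIF2A or of both. The group held 10 genes, chosen by symbol as BHLHE40, BHLHE41, CLOCK, PER1, PER2, PER3, CRY1, CRY2, NR1D1 and DBP. They were 10 of the 23106 gene symbols counted in each library, and all 10 passed edgeR's filter on low counts. RCC4 cells, an established line from a human clear cell renal carcinoma, lack functional VHL, the protein that marks HIF-α subunits for destruction, and therefore keep HIF-1α and HIF-2α without hypoxia. RNA was collected 48 h after siRNA transfection in 21% oxygen, with the medium changed at 24 h. Every dish received 2 nM siRNA in total. The control siRNA group received 2 nM control siRNA. The HIF1A siRNA group received 1 nM HIF1A siRNA with 1 nM control siRNA, the HIF2A siRNA group 1 nM HIF2A siRNA (against EPAS1, which encodes HIF-2α) with 1 nM control siRNA, and the double knockdown 1 nM of each HIF siRNA and no control siRNA. There were 3 replicates per group and 12 libraries, all of 1 cell line at 1 time, so that levels and not rhythms were measured.

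The mammalian clock is a transcriptional feedback loop. CLOCK pairs with BMAL1 (gene symbol ARNTL) and activates genes through E-boxes, and the PER and CRY proteins they induce then repress CLOCK and BMAL1. NR1D1 (REV-ERBα) represses ARNTL, opposing the nuclear receptor RORA, and DBP is an E-box target that activates further genes through D-boxes. BHLHE40 (DEC1) and BHLHE41 (DEC2) are repressors that bind E-boxes as well, and they are induced by hypoxia.

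HIF dimers bind the core letters ACGTG or GCGTG, the E-box of CLOCK and of BHLHE40 and BHLHE41 reads CACGTG, and the D-box reads TTANGTAA with a pyrimidine at N. The promoters of BHLHE40 and BHLHE41 are printed because these were the members that fell, and each runs from 250 bases before the RefSeq start site to 50 bases after it. The sequences are those of RefSeq on the GRCh38.p14 build, whereas the reads had been aligned to hg19. The BHLHE40 window lies at chr3:4979187-4979486 on the plus strand and the BHLHE41 window at chr12:26124988-26125287 on the minus strand. Both are written 5′ to 3′ on the strand of the gene, and capitals mark ACGTG, the GCGTG core and TTANGTAA on either strand.
BHLHE40: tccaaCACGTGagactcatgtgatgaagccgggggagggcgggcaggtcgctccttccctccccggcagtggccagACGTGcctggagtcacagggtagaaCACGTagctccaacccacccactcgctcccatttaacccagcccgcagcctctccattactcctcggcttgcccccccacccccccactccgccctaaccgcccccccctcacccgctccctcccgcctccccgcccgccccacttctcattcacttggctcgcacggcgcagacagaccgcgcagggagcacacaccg
BHLHE41: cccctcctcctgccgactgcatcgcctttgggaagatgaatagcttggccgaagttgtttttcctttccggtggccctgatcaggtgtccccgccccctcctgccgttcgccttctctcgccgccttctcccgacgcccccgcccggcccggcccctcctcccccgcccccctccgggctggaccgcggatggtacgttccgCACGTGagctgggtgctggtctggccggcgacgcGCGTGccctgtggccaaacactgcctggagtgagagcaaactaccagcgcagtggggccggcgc

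The BHLHE40 window held 4 matches to ACGTG over both strands. A pair of them formed the palindrome CACGTG at position -245 from the start site, and the others lay at -174 and -149. Of 35116 promoter windows of the same length, 0.843% held 4 or more such matches. The BHLHE41 window held CACGTG at -48, which is an ACGTG match on each strand, and GCGTG at -14. Each CACGTG thus counts as an E-box and as 2 ACGTG matches. ACGTG was found in 21.4% of all windows, GCGTG in 36.5%, CACGTG in 7.26% and TTANGTAA in 2.18%. The search for TTANGTAA allowed any base at N, so that its share also counts purines there. Of the 13 windows of the members, 9 held ACGTG, 8 held GCGTG, 3 held CACGTG and 2 held TTANGTAA. By gene, these were 8, 7, 3 and 2 of the 10 members. The windows of PER1, PER2 and NR1D1 and a window of CRY2 held 2 matches to ACGTG, as that of BHLHE41 did. PER1, PER2, NR1D1 and CRY2 did not pass the test described below in any comparison, and a link between matches and response was not tested. The sites of the PER genes are shown for comparison, with the E-box or D-box in capitals, at chr17:8152562-8152587 (PER1, minus strand), chr2:238288596-238288623 (PER2, minus strand) and chr1:7784104-7784131 (PER3, plus strand).
PER1: cacccaggtcCACGTGcgcccgtgtg
PER2: ccgctgcggcTTACGTAAccgccgccgg
PER3: agcccgcgcgTTATGTAAcgcgccccgg
A match describes these letters in these windows, and binding was not measured here.

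Libraries held from 13263168 to 20451433 counts. CPM values are counts divided by the library total after TMM scaling. A gene is said to have changed when its Benjamini-Hochberg adjusted p over all genes tested, from the quasi-likelihood test in edgeR, was under 0.05. The renal epithelial markers PAX8 (197 to 315 CPM) and KRT8 (367 to 570 CPM) were present in every library, and the leukocyte marker PTPRC and the endothelial marker PECAM1 had 0 counts in every library. In bulk samples, fewer cells with a transcript and less of it per cell cannot be told apart. Targeting was checked first. HIF1A stood at 120.2, 58.2 and 112 CPM in replicates 1, 2 and 3 with control siRNA, at 14.99, 17.8 and 22.2 with HIF1A siRNA, at 111, 116 and 136 with HIF2A siRNA and at 24.2, 32.2 and 29.8 in the double knockdown. EPAS1 stood at 163, 138 and 171 CPM with control siRNA, at 101, 107 and 134 with HIF1A siRNA, at 9.16, 11.9 and 9.33 with HIF2A siRNA and at 8.54, 11.3 and 7.01 in the double knockdown. Each siRNA thus left its target below every control library. HIF1A mRNA in the double knockdown lay above every library of HIF1A siRNA alone (log2 fold change 0.66, edgeR adjusted p = 0.182). EPAS1 mRNA also lay below every control library with HIF1A siRNA alone (log2 fold change -0.47, edgeR adjusted p = 0.28), and its part in the results with HIF1A siRNA was not tested.

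**Figure D1:**
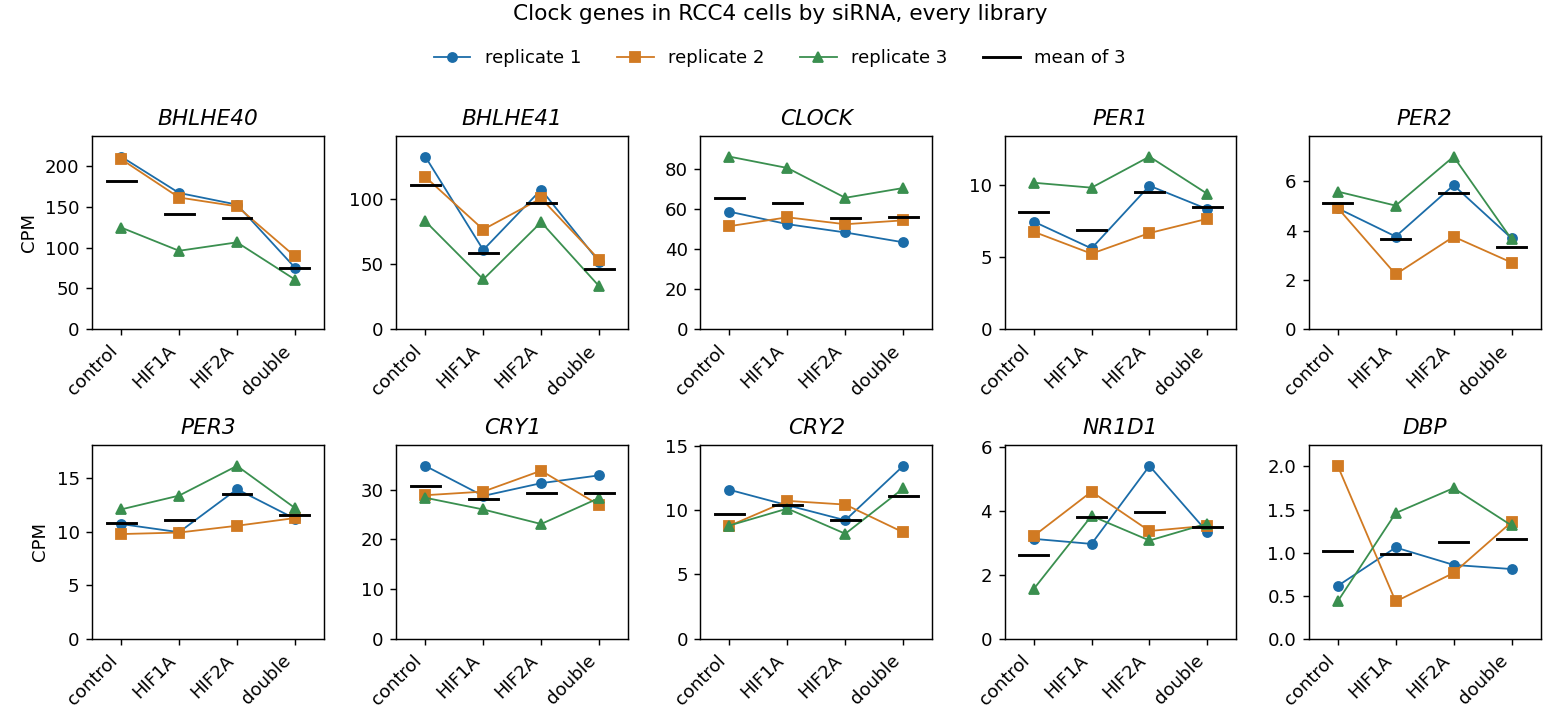
CPM (linear axis from 0, a scale of its own per gene) of the 10 clock genes in each of the 12 libraries, by siRNA group on the horizontal axis, with libraries of the same replicate number joined and the mean of 3 as a black bar. BHLHE40 falls from a mean of 181 CPM with control siRNA to 75.2 in the double knockdown, and BHLHE41 from 111 to 46.3.

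Of the members, the E-box repressors BHLHE40 and BHLHE41 passed the test, and the responses of these genes were not tested against each other. BHLHE41 fell with HIF1A siRNA and in the double knockdown. BHLHE40 fell in the double knockdown, below each single knockdown as well, while its values after either single knockdown were lower in every pair without passing the test. The activator CLOCK, the repressors PER1, PER2, PER3, CRY1, CRY2 and NR1D1, and the output factor DBP were called in none of the 7 comparisons.

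BHLHE40 was measured at 211, 208 and 124.5 CPM with control siRNA (mean 181 ± 49.2, SD, n = 3). It was at 167, 161 and 96.1 CPM with HIF1A siRNA (141 ± 39.3, SD, n = 3) and at 152.5, 150.4 and 106 CPM with HIF2A siRNA (136 ± 26.0, SD, n = 3). In the double knockdown it was at 75.5, 89.3 and 61.0 CPM (75.2 ± 14.2, SD, n = 3). The ranges of both single knockdowns overlapped that of control siRNA, whereas all 3 libraries of the double knockdown lay below every control library. Replicate 3 was the lowest in each of the 4 groups, so that values are also given within pairs of the same replicate number. Within pairs, HIF1A siRNA left BHLHE40 at 79.0, 77.6 and 77.3% of control and HIF2A siRNA at 72.3, 72.3 and 85.5%. The double knockdown left 35.9, 43.0 and 49.2% of control.

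In the fit, the log2 fold change of BHLHE40 was -0.36 for HIF1A siRNA (SE 0.112, unadjusted p = 0.00732, edgeR adjusted p = 0.278) and -0.38 for HIF2A siRNA (SE 0.113, unadjusted p = 0.0053, edgeR adjusted p = 0.615). Lower values in 3 of 3 pairs thus failed the correction in both comparisons. The single knockdowns differed from each other by 0.02 on the log2 scale, with a 95% interval from -0.22 to 0.26. The double knockdown had a log2 fold change of -1.24 against control siRNA (SE 0.112, edgeR adjusted p = 4.37e-06), and this call held in all 21 alternative fits. It was also lower than HIF1A siRNA alone (log2 fold change -0.88, SE 0.111, edgeR adjusted p = 0.000547) and HIF2A siRNA alone (log2 fold change -0.85, SE 0.111, edgeR adjusted p = 0.000262). Those last calls were lost when the replicate block was left out, with edgeR adjusted p of 0.669 and 0.338 and log2 fold changes of -0.91 and -0.86. On GRCh38, exons of BHLHE40 share 451 bases with the antisense gene BHLHE40-AS1, which was not analysed here. The strand setting of the counting is not given in the sources used here, so reads of the antisense gene could have been counted for BHLHE40.

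BHLHE41 was measured at 133, 117 and 83.2 CPM with control siRNA (mean 111 ± 25.4, SD, n = 3). With HIF1A siRNA it was at 61.1, 76.8 and 38.4 CPM (58.8 ± 19.3, SD, n = 3), below every control library. With HIF2A siRNA it was at 107.5, 101 and 82.5 CPM (96.9 ± 12.98, SD, n = 3), overlapping control siRNA, and in the double knockdown at 52.0, 53.7 and 33.2 CPM (46.3 ± 11.4, SD, n = 3), again below every control library. Replicate 3 was the lowest of each group for BHLHE41 too. Within pairs, HIF1A siRNA left 46.2, 65.7 and 46.5% of control, HIF2A siRNA 81.0, 86.0 and 99.1%, and the double knockdown 39.4, 46.0 and 40.3%.

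The log2 fold change of BHLHE41 was -0.94 with HIF1A siRNA (SE 0.144, edgeR adjusted p = 0.00418) and -0.17 with HIF2A siRNA (SE 0.142, edgeR adjusted p = 0.951). The direct comparison put BHLHE41 lower with HIF1A than with HIF2A siRNA by a log2 fold change of -0.77 (SE 0.144, edgeR adjusted p = 0.0141). Both calls were lost without the replicate block (log2 fold changes of -0.92 and -0.73, edgeR adjusted p of 0.565 and 0.924) and when some libraries were left out. Against control siRNA the log2 fold change was -0.86 without the 3 libraries of replicate 3 (edgeR adjusted p = 0.118), -0.88 without HIF1A siRNA replicate 1 (edgeR adjusted p = 0.0707) and -0.82 without HIF1A siRNA replicate 3 (edgeR adjusted p = 0.0584). Against HIF2A siRNA it was -0.60, -0.71 and -0.64 under the same removals (edgeR adjusted p of 0.48, 0.157 and 0.163) and -0.63 without HIF2A siRNA replicate 3 (edgeR adjusted p = 0.176). The double knockdown gave a log2 fold change of -1.27 against control siRNA (SE 0.130, edgeR adjusted p = 1.49e-05), which held in all 21 alternatives, and of -1.09 against HIF2A siRNA (SE 0.129, edgeR adjusted p = 1e-04), which was lost without the replicate block (edgeR adjusted p = 0.17). Against HIF1A siRNA alone it was -0.33 (SE 0.129, edgeR adjusted p = 0.299). Exons of BHLHE41 share 162 bases with SSPN on the opposite strand. SSPN stood at 9.63 to 21.9 CPM and did not pass the test in any comparison. In the double knockdown SSPN lay below every control library (log2 fold change -0.53, unadjusted p = 0.0197, edgeR adjusted p = 0.112).

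**Figure D2:**
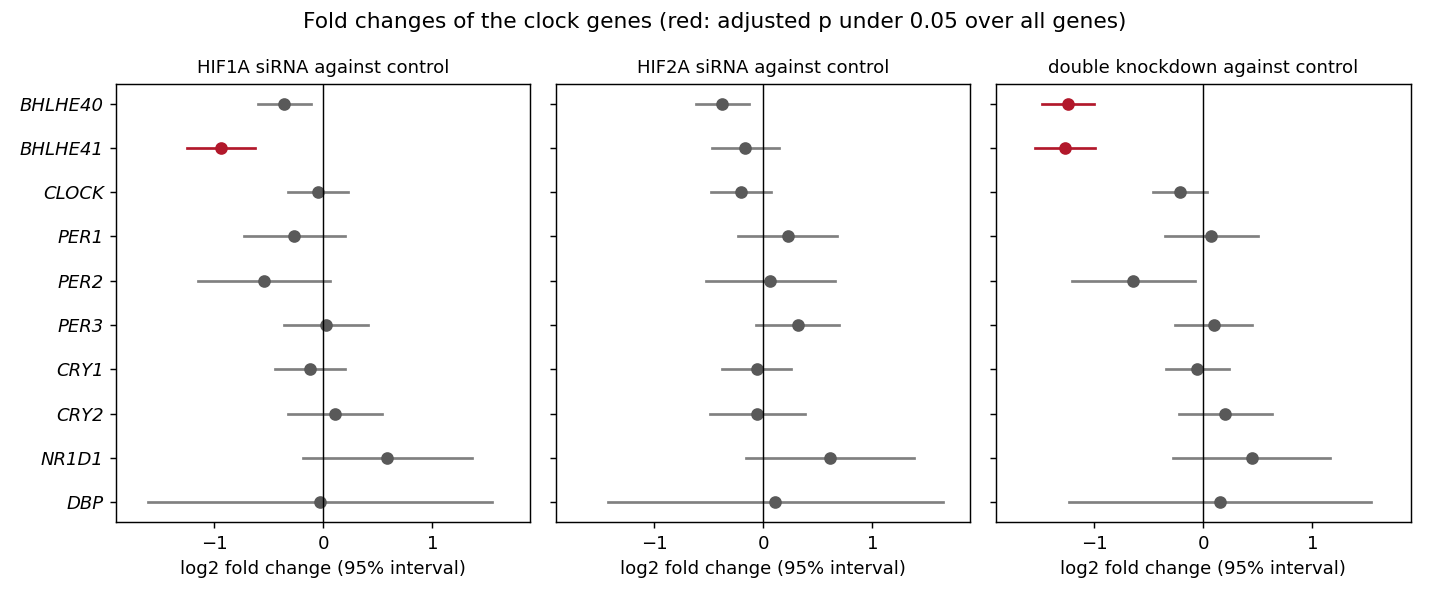
Log2 fold change of each clock gene against control siRNA (points) with its 95% interval (lines) from edgeR, in panels for HIF1A siRNA, HIF2A siRNA and the double knockdown. Red marks an adjusted p under 0.05, which BHLHE41 reached with HIF1A siRNA (-0.94) and both BHLHE genes in the double knockdown (-1.24 and -1.27).

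Set against all genes tested, the members were called as follows. With HIF1A siRNA, 1 of 10 members changed (BHLHE41, lower), and 1.17% of 12830 genes did. With HIF2A siRNA, edgeR called 0 of 10 members and DESeq2 called 0, with 1 member (BHLHE40) at an unadjusted p under 0.05 and 0.0857% of all genes called. Between HIF1A and HIF2A siRNA 1 member changed (BHLHE41), where 1.5% of genes did. In the double knockdown 2 of 10 members fell against control siRNA and 10.3% of 13000 genes changed. Against HIF1A siRNA alone 1 member fell (BHLHE40, background 1.4%), and against HIF2A siRNA alone 2 fell (BHLHE40 and BHLHE41, background 4%). The median log2 fold change of the members was -0.09 with HIF1A siRNA, 0.00 with HIF2A siRNA and 0.01 in the double knockdown, beside 0.00, 0.01 and 0.00 over all genes tested. The 3 comparisons with control siRNA share its libraries.

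Whether the siRNAs acted additively on the log2 scale was asked with their interaction. In the double knockdown, BHLHE40 lay below the sum of the single log2 ratios in all 3 pairs, by -0.67, -0.38 and -0.43. The fitted interaction was -0.49 (SE 0.156, 95% interval from -0.83 to -0.16, unadjusted p = 0.0065), and with an edgeR adjusted p of 0.999 it did not pass the correction over 13000 genes. For BHLHE41 the same differences were 0.07, -0.29 and -0.19, and the interaction was -0.15 (SE 0.181, edgeR adjusted p = 0.999). The interaction had 0 of 10 members called by edgeR and 0 by DESeq2, with BHLHE40 at an unadjusted p under 0.05. Over all genes edgeR called 0% of 13000 for the interaction, 318 had an unadjusted p under 0.05 and DESeq2 called 11.

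**Figure D3:**
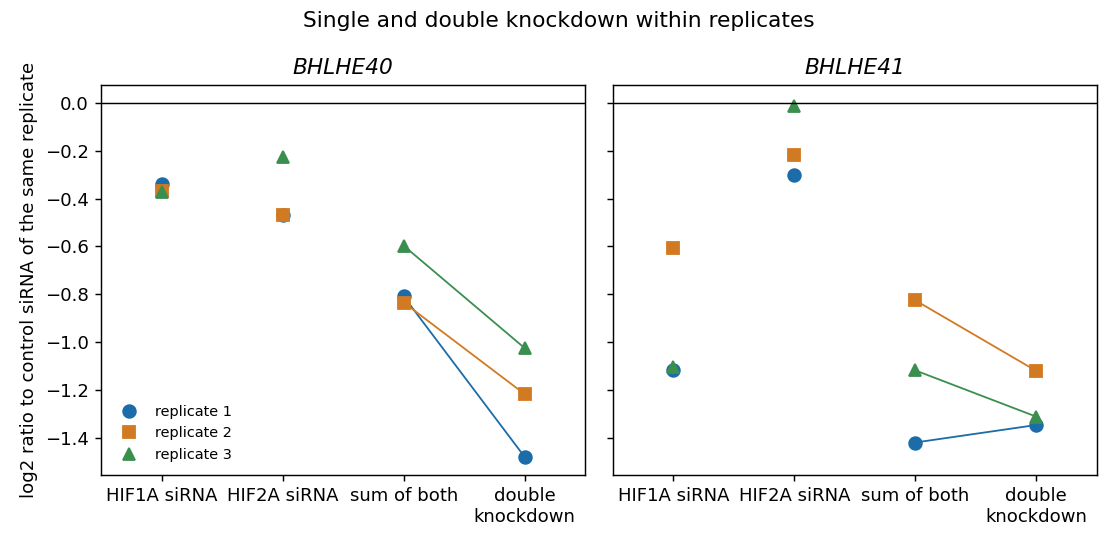
Log2 ratio of CPM to the control library of the same replicate number for BHLHE40 and BHLHE41, with each single siRNA, their sum and the double knockdown. Lines join the sum to the double knockdown within a replicate, and for BHLHE40 all 3 lines fall, by 0.38 to 0.67.

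The remaining 8 members did not pass the test in any comparison. CLOCK, the activating partner of BMAL1, was at 58.5, 51.3 and 85.9 CPM with control siRNA, at 52.3, 55.7 and 80.3 with HIF1A siRNA, at 48.2, 52.3 and 65.4 with HIF2A siRNA and at 43.3, 54.2 and 70.3 in the double knockdown. Replicate 3 was the highest library in each group. The fitted log2 fold changes against control siRNA were -0.05, -0.21 and -0.22, and in the double knockdown the 95% interval ran from -0.47 to 0.03 (edgeR adjusted p = 0.263). CLOCK shares 76 exon bases with TMEM165, which stood at 71.8 to 93.7 CPM over the libraries.

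Of the PER genes, which encode repressors induced through E-boxes, PER2 came nearest to a call. It stood at 4.90, 4.92 and 5.58 CPM with control siRNA, at 3.76, 2.23 and 5.01 with HIF1A siRNA and at 5.84, 3.75 and 6.995 with HIF2A siRNA. In the double knockdown it was at 3.69, 2.71 and 3.65 CPM, below every control library. The log2 fold change there was -0.64 (SE 0.265, unadjusted p = 0.029, edgeR adjusted p = 0.142), and it was -0.61 for HIF1A against HIF2A siRNA (unadjusted p = 0.0487, edgeR adjusted p = 0.486). PER1 ranged from 5.25 CPM in HIF1A siRNA replicate 2 to 11.98 in HIF2A siRNA replicate 3. Its fitted log2 fold change for HIF1A against HIF2A siRNA was -0.49 (unadjusted p = 0.038, edgeR adjusted p = 0.451). PER3 ranged from 9.78 to 16.2 CPM, was higher than control siRNA in 3 of 3 pairs with HIF2A siRNA, and had a log2 fold change of 0.32 there (edgeR adjusted p = 0.931). Its exons share 868 bases with UTS2, which had 0 counts in every library. PER3 exons also share 482 bases with an antisense noncoding gene that was not among the symbols counted.

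CRY1 and CRY2 encode the repressors that act with the PER proteins. CRY1 lay between 23.1 and 34.8 CPM over the 12 libraries, with log2 fold changes against control siRNA of -0.12, -0.06 and -0.06 and a 95% interval in the double knockdown from -0.35 to 0.23. CRY2 lay between 8.16 and 13.4 CPM, and its log2 fold changes were 0.11, -0.06 and 0.20. With HIF1A siRNA the 95% interval of CRY1 ran from -0.44 to 0.20 and thus included the value of BHLHE40 there (-0.36).

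NR1D1 was at 3.12, 3.21 and 1.55 CPM with control siRNA and at 3.33, 3.53 and 3.60 in the double knockdown. All 3 of the latter lay above control siRNA, with little room between the highest control library and the lowest of the double knockdown. Its log2 fold changes were 0.59 with HIF1A siRNA, 0.61 with HIF2A siRNA and 0.44 in the double knockdown (edgeR adjusted p of 0.84, 0.937 and 0.449). NR1D1 shares 473 exon bases with THRA, which was itself low at 0.351 to 3.36 CPM. DBP had 6 to 40 counts per library, and its 95% interval in the double knockdown ran from -1.23 to 1.54 on the log2 scale. Its control libraries alone ranged from 7 to 40 counts. DBP shares 661 exon bases with SPHK2, which stood at 15.9 to 27.9 CPM and rose in the double knockdown (log2 fold change 0.50, edgeR adjusted p = 0.0382).

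Levels between genes were compared as CPM per kilobase of the canonical GENCODE transcript. With control siRNA the order was BHLHE40 (57.5 ± 15.6, SD, n = 3), BHLHE41 (29.7 ± 6.79), CRY1 (10.3 ± 1.20), CLOCK (6.23 ± 1.74), CRY2 (2.35 ± 0.390), PER1 (1.74 ± 0.383), PER3 (1.71 ± 0.182), NR1D1 (1.00 ± 0.356), PER2 (0.804 ± 0.0605) and DBP (0.469 ± 0.397). The ranges of CRY2 and PER1, of PER1 and PER3, of NR1D1 and PER2, and of PER2 and DBP overlapped between neighbours, and the other neighbours did not overlap. BHLHE40 and BHLHE41 remained the highest of the 10 in the double knockdown, at 23.9 ± 4.49 and 12.4 ± 3.03 CPM per kilobase (SD, n = 3). The clock members whose mRNA fell were thus also the most abundant per length.

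The members also differed in what their variance followed. Of the variance of log2 CPM over the 12 libraries, the siRNA group took 69.5% for BHLHE40 and 74.4% for BHLHE41, and the replicate number 28.1 and 21.98%. Over all genes tested the median shares were 19.2% for siRNA and 46.4% for replicate number, and 95.5 and 96.9% of genes had a lower siRNA share than BHLHE40 and BHLHE41. CLOCK was the reverse, with 79.1% for replicate number and 11.5% for siRNA. PER1, PER3 and CRY1 also followed the replicate number more than the siRNA (60.4, 50.2 and 49.3% against 25.5, 31.8 and 7.29%), PER2 had 48.5% for siRNA, and DBP left 86.3% to the remainder. Replicate 3 was the highest library of all 4 groups for CLOCK, PER1 and PER3, as for 23.7% of genes tested. It was the lowest of all 4 for BHLHE40 and BHLHE41, as for 20.5% of genes. These shares describe 1 set of libraries and were not tested.

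**Figure D4:**
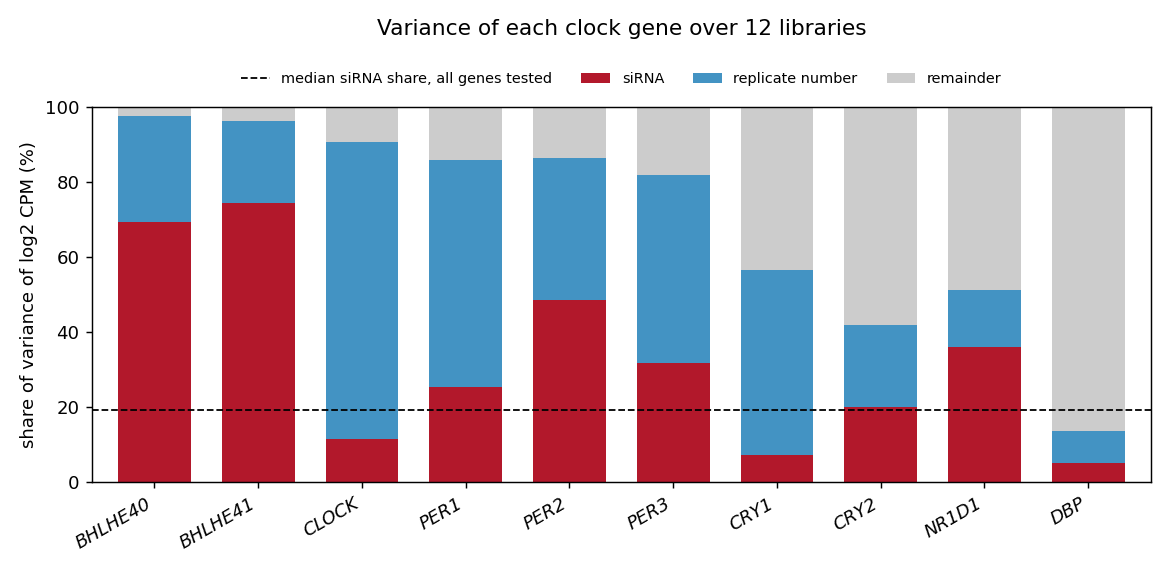
Share of the variance of log2 CPM over the 12 libraries (percent, stacked to 100) taken by siRNA group, replicate number and remainder for each clock gene, with the median siRNA share of all genes tested (19.2%) as a dashed line. BHLHE40 (69.5%) and BHLHE41 (74.4%) carry most of their variance in the siRNA group, and CLOCK (79.1%) in the replicate number.

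Genes with the pattern nearest to each BHLHE gene were found by the root mean square difference of the 9 within-pair log2 ratios to control siRNA. For BHLHE40 the nearest were STYK1 (0.172), PPP1R3B (0.195), ESAM (0.203), ZFHX2 (0.216) and FGF1 (0.225), against a median of 0.850 over the other genes. For BHLHE41 they were LRIG1 (0.159), LDHA (0.163), KDM3A (0.178), PLOD2 (0.187) and STBD1 (0.190), against a median of 0.981. LDHA encodes a lactate dehydrogenase subunit, KDM3A a histone demethylase and PLOD2 a collagen lysyl hydroxylase. The BHLHE genes themselves differed by 0.400, which made BHLHE41 the 166th nearest of 12999 genes to BHLHE40, and BHLHE40 the 80th nearest to BHLHE41.

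Beyond the members, 19 further genes of the clock machinery were followed, of which 16 passed the filter on low counts and were tested. Among the 16, edgeR called 2 with HIF1A siRNA, 0 with HIF2A siRNA (1 gene with an unadjusted p under 0.05, and 0 by DESeq2), 2 between HIF1A and HIF2A siRNA, 4 in the double knockdown against control siRNA, 0 against HIF1A siRNA alone (4 at an unadjusted p under 0.05, and 2 by DESeq2), 2 against HIF2A siRNA alone and 0 for the interaction (0 at an unadjusted p under 0.05, and 0 by DESeq2). Over all genes tested, edgeR called 1.17, 0.0857, 1.5, 10.3, 1.4, 4 and 0% in the same order of comparisons. Each of the 16 that was called was lower in the first-named group. The median log2 fold changes of the 16 against control siRNA were -0.09, -0.07 and -0.30 for HIF1A siRNA, HIF2A siRNA and the double knockdown. Over all genes tested, these medians were 0.00, 0.01 and 0.00.

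RORA, the nuclear receptor that activates ARNTL where NR1D1 represses it, had the largest fall of the 16 with HIF1A siRNA and in the double knockdown. It was at 17.3, 11.5 and 9.79 CPM with control siRNA and at 13.9, 9.35 and 7.58 with HIF2A siRNA. With HIF1A siRNA it was at 2.49, 1.44 and 1.897 CPM, and in the double knockdown at 1.36, 0.376 and 0.876. Every library that received HIF1A siRNA lay below every library that did not. The log2 fold change was -2.70 with HIF1A siRNA (SE 0.235, edgeR adjusted p = 3.18e-05), -0.32 with HIF2A siRNA (edgeR adjusted p = 0.94) and -3.85 in the double knockdown (SE 0.288, edgeR adjusted p = 6.85e-07). For the double knockdown against HIF1A siRNA alone it was -1.14 (SE 0.309, edgeR adjusted p = 0.0956), a difference that DESeq2 called and edgeR did not. Against HIF2A siRNA, RORA was lower with HIF1A siRNA by a log2 fold change of -2.37 (edgeR adjusted p = 9.39e-05), and its calls held in every alternative that could be fitted. Exons of RORA share 564 bases with the antisense gene RORA-AS1, which was not among the symbols counted. With the strand setting of the counting not given, reads of the antisense gene could have been counted for RORA. The RORA window searched, at chr15:60627481-60627780 on the minus strand of GRCh38.p14, held no match to either HIF core, the E-box or the D-box. GENCODE places the gene at chr15:60488284-61229302, so this start site lies inside it and not at its upstream end. No other RORA window was searched, so the letters at other RORA start sites are not known here.

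C1orf51 is the older symbol of CIART, a repressor of CLOCK and BMAL1. It was at 17.7, 21.5 and 13.6 CPM with control siRNA, at 13.2, 7.41 and 4.52 with HIF1A siRNA, at 28.1, 23.6 and 16.1 with HIF2A siRNA and at 13.4, 11.2 and 3.02 in the double knockdown. Its log2 fold change was -1.15 with HIF1A siRNA (SE 0.220, edgeR adjusted p = 0.0193), 0.34 with HIF2A siRNA (edgeR adjusted p = 0.94) and -1.49 between them (SE 0.218, edgeR adjusted p = 0.00236). In the double knockdown it was -1.11 (SE 0.269, edgeR adjusted p = 0.0167) against control siRNA and -1.43 (edgeR adjusted p = 0.00551) against HIF2A siRNA. The call with HIF1A siRNA was lost without the replicate block (edgeR adjusted p = 1), without replicate 2 (0.0892) or 3 (0.31), without control siRNA replicate 3 (0.157) and without HIF1A siRNA replicate 2 (0.241) or 3 (0.162). The call between HIF1A and HIF2A siRNA was lost without the block (0.313) and without HIF1A siRNA replicate 2 (0.0512). That of the double knockdown was lost against control siRNA without the block (0.549), without replicate 3 (0.237), without control siRNA replicate 2 (0.0568) or 3 (0.0922) and without double knockdown replicate 3 (0.0831), and against HIF2A siRNA without the block (0.607) and without replicate 3 (0.0807). The CIART promoter window, at chr1:150282304-150282603 on the plus strand of GRCh38.p14, is shown because it held 3 copies of CACGTG (capitals), at -129, -71 and -57 from the start site.
CIART: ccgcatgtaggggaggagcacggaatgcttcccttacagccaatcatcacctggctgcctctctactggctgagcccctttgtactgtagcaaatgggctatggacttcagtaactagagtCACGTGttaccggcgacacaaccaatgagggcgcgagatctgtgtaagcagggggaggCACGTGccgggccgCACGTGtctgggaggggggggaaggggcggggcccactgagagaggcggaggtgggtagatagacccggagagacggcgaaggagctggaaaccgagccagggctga

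ARNTL2 and NFIL3 fell in the double knockdown against control siRNA. ARNTL2, a paralog of ARNTL, was at 151, 116 and 224 CPM with control siRNA and at 105, 79.9 and 158 in the double knockdown, which was 69.5, 69.0 and 70.8% of control within pairs. The groups overlapped, and replicate 3 was the highest in each. The log2 fold change was -0.52 (SE 0.110, edgeR adjusted p = 0.00728), and the call was lost without the replicate block (edgeR adjusted p = 0.636), without replicate 1 (0.0696) or 3 (0.167) and without double knockdown replicate 2 (0.0527). Against HIF1A siRNA alone the log2 fold change was -0.40 (edgeR adjusted p = 0.101), and against HIF2A siRNA alone -0.26 (edgeR adjusted p = 0.233). The difference from HIF1A siRNA alone was called by DESeq2, and by edgeR without HIF2A siRNA replicate 2. NFIL3, a repressor at D-boxes that opposes DBP, was at 52.2, 53.7 and 51.7 CPM with control siRNA and at 34.9, 35.0 and 46.9 in the double knockdown, below every control library. Its log2 fold change of -0.44 (SE 0.126, edgeR adjusted p = 0.038) lost its call in 11 of 21 alternatives, which were the fit without the block, those without any 1 replicate number, those without any 1 control library, and those without HIF1A siRNA replicate 1, HIF2A siRNA replicate 3 or double knockdown replicate 1 or 2 (edgeR adjusted p from 0.0516 to 0.294). ARNTL itself had log2 fold changes of -0.51, 0.02 and -0.42 against control siRNA, with edgeR adjusted p of 0.606 with HIF1A siRNA and 0.183 in the double knockdown. NR1D2, the paralog of NR1D1, had log2 fold changes of 0.10, 0.02 and 0.12.

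**Figure D5:**
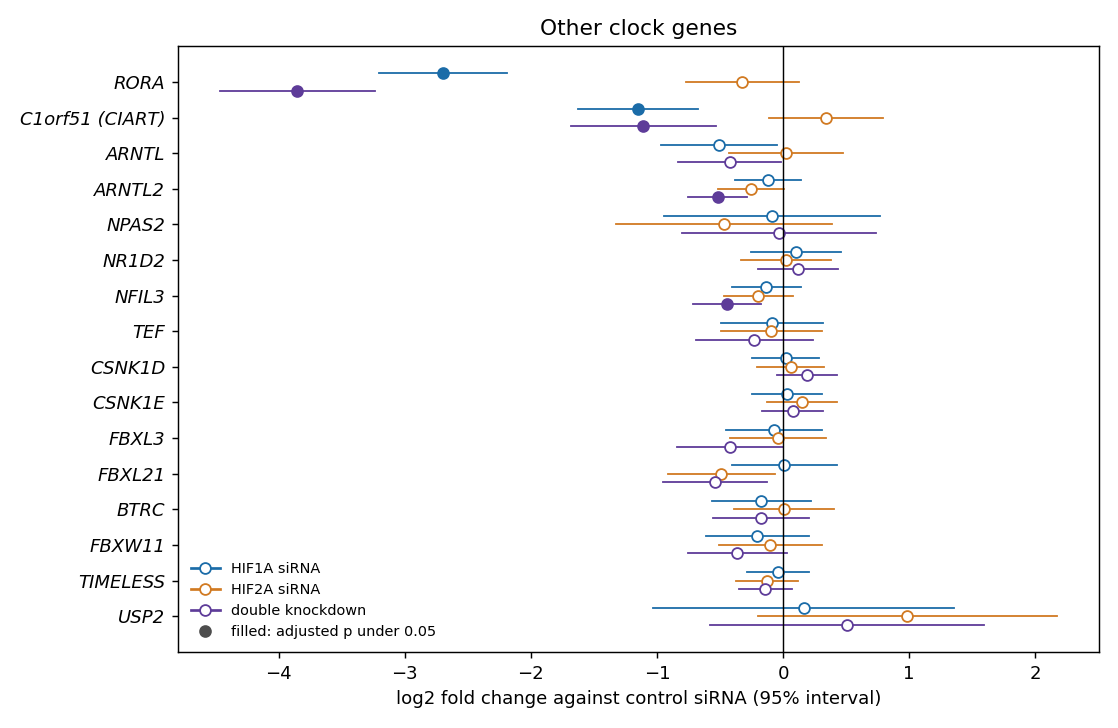
Log2 fold change against control siRNA with its 95% interval for the 16 further clock genes tested, for HIF1A siRNA, HIF2A siRNA and the double knockdown (colours), filled where the adjusted p was under 0.05. RORA lies at -2.70 with HIF1A siRNA and -3.85 in the double knockdown, and at -0.32 with HIF2A siRNA.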

How the data were processed

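Bulk RNA was sequenced from 12 dishes of RCC4 cells. The authors trimmed reads with Trim Galore (0.3.3), mapped them to hg19 with HISAT2, kept uniquely mapped fragments using Picard and counted these per gene with HTSeq in its intersection-strict mode. They deposited raw counts for 23106 symbols per library, without normalization. Library totals ranged from 13263168 to 20451433. From the counts, genes were tested with edgeR (4.0.16, R 4.3.3), using quasi-likelihood tests, TMM scaling, its filter (10 counts, total 15), a block for the replicate number and adjustment by Benjamini-Hochberg. The 9 libraries of control and single siRNAs were fitted together over 12830 genes. Comparisons with the double knockdown and the interaction used all 12 libraries over 13000 genes. DESeq2 (1.42.0) was an alternative. Ratios within pairs were taken after adding 0.5 CPM.

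The members and gene lists were chosen with earlier results of these data known. Named genes were HIF1A, EPAS1, the members, other clock genes where called or paired by role, the 5 nearest genes to BHLHE40 and BHLHE41, and genes overlapping a member. The block follows the study's pairing by biological replicate. Same-numbered libraries deviated from their group means with correlations across genes of 0.0991 to 0.813, and differently numbered ones of -0.724 to 0.527. Replicates differed beyond sampling noise and none was merged. Scripts were tested on simulated data. Sequences came from RefSeq (GRCh38.p14), and transcript lengths and overlaps from GENCODE on GRCh38.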

Additional observations from a re-analysis of the deposited data

How the results depend on the processing

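The alternatives were DESeq2 size factors, no filter, 10 counts in every library, no replicate block, DESeq2, all 12 libraries in the fit of the single siRNAs, each replicate number or library left out, and an adjusted p under 0.1. The falls of BHLHE40 and BHLHE41 in the double knockdown kept their call in all 21. Without the replicate block, the count of members called was 0 for HIF1A siRNA, for HIF1A against HIF2A siRNA, and for the double knockdown against either single siRNA, and 2 for the double knockdown against control siRNA. With a replicate number or library left out, it ranged from 0 to 1 for HIF1A siRNA and for HIF1A against HIF2A siRNA. The sign of BHLHE40 between HIF1A and HIF2A siRNA turned in 5 such fits (log2 fold change from -0.039 to 0.120), and that of the BHLHE41 interaction in 1 (0.011 without HIF1A siRNA replicate 2, range -0.301 to 0.011). The causes were not tested. The 8 other members were called in none of the alternatives. Among the other clock genes, the double knockdown calls fell from 4 to 1 without the block or without replicate 3. RORA had 5 counts in double knockdown replicate 2, so with 10 counts required in every library it was tested only in the fit of the single siRNAs, where it kept its calls. DBP had 6 to 40 counts per library and wide intervals.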
